A study of Danio rerio with 2 samples.

Results

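The long arm of zebrafish (Danio rerio) chromosome 4 was described here as the transcribed regions of that chromosome that start at or above base 30000000 of the Zv9 genome build. There were 1177 such regions of 46045 in the whole series. They were chosen by position alone, from rows of at least 300 bp at no more than 200000 FPKM (fragments per kilobase of transcript, scaled by library depth). Rows of both libraries that overlapped by 1 bp or more were merged, and their FPKM were summed per library. The comparisons are with the 1119 regions of chromosome 4 that start below this base and with the 41868 regions of the 24 other chromosomes. For some measures the 1881 regions on unplaced sequences of the build are given too.

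RNA came from 2 populations of neural cells, sorted by fluorescence from the tails of embryos at 20 hours post fertilization, cut at somite 3. The 1020 library came from cells marked by the Gal4 driver 1020st, labelled an olig2+ subpopulation, Olig2 being the transcription factor that marks progenitors of motor neurons and oligodendrocytes. The HuC library came from cells marked by a HuC driver and labelled panneuronal, HuC (Elavl3) being an RNA-binding protein found in neurons. The sources used here do not give the fluorescent reporters, the number of embryos or how far the populations overlap. Each population had 1 library, so the spread between embryos or sorts is unknown and no difference between the libraries was tested. The rows carry positions and no gene names, so marker genes of either population could not be checked and the genes of the arm could not be named.

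In zebrafish the long arm of chromosome 4 is known as a heterochromatic, late-replicating arm that is rich in repeats. It is poor in genes shared with other vertebrates and carries large families of near-identical genes in tandem, among them NLR genes (NOD-like receptors of innate immunity) and zinc finger genes, as well as many copies of 5S ribosomal RNA and small nuclear RNA genes. In several zebrafish strains close to the wild its far end holds a region linked to sex. Near-identical copies matter for these measurements, because a short read from such a copy can align to several places and its level can be divided among them.

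The arm was listed as many short regions. It held 36.7 regions per Mb, against 37.3 per Mb on chromosome 4 below 30 Mb and 32.3 per Mb on the other chromosomes, taking the last listed base of each chromosome as its end. These regions covered 11.1% of the arm, against 46.5% of chromosome 4 below 30 Mb and 42.2% of the other chromosomes. The gap between neighbouring regions had a median of 8768 bp on the arm, 3044 bp below 30 Mb and 3622 bp elsewhere. The arm thus had a like number of regions per Mb, with less sequence inside them and longer gaps between them.

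Regions listed in both libraries, 474 on the arm, had a median span of 1435 bp (quartiles 951 and 2319 bp). This median was 6305 bp on chromosome 4 below 30 Mb and 8116 bp on the other chromosomes. It lay below the median of each of the 24 other chromosomes, the shortest of which was chromosome 22 at 5829 bp (mean over the 24 chromosomes 8186 ± 960 bp, SD). Shared regions of 10000 bp or more made up 5.91% of the arm's shared regions (28 of 474), against 39.7% below 30 Mb and 45.8% elsewhere. A single row in each library, with no further overlapping row, made up 77.4% of the arm's shared regions, against 49.3% below 30 Mb and 47.5% elsewhere. Short shared regions were not particular to the arm. On the unplaced sequences their median span was 1813.5 bp, and 68.2% had a single row in each library.

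The median level of the arm's shared regions was 2.68 FPKM in 1020 and 2.79 FPKM in HuC. Below 30 Mb the medians were 4.62 FPKM in 1020 and 4.57 FPKM in HuC, and on the other chromosomes 5.09 FPKM in 1020 and 5.06 FPKM in HuC. On the unplaced sequences they were 3.19 FPKM in 1020 and 3.57 FPKM in HuC. The arm's medians lay below those of all 24 other chromosomes in each library, where the lowest were 4.45 FPKM in 1020 and 4.55 FPKM in HuC. Of the arm's shared regions, 18 reached 50 FPKM in at least 1 library (3.80%), against 4.73% below 30 Mb and 8.43% elsewhere. The arm held 2.56% of all regions but 0.801% of the summed FPKM of 1020 and 0.825% of that of HuC.

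**Figure D1:**
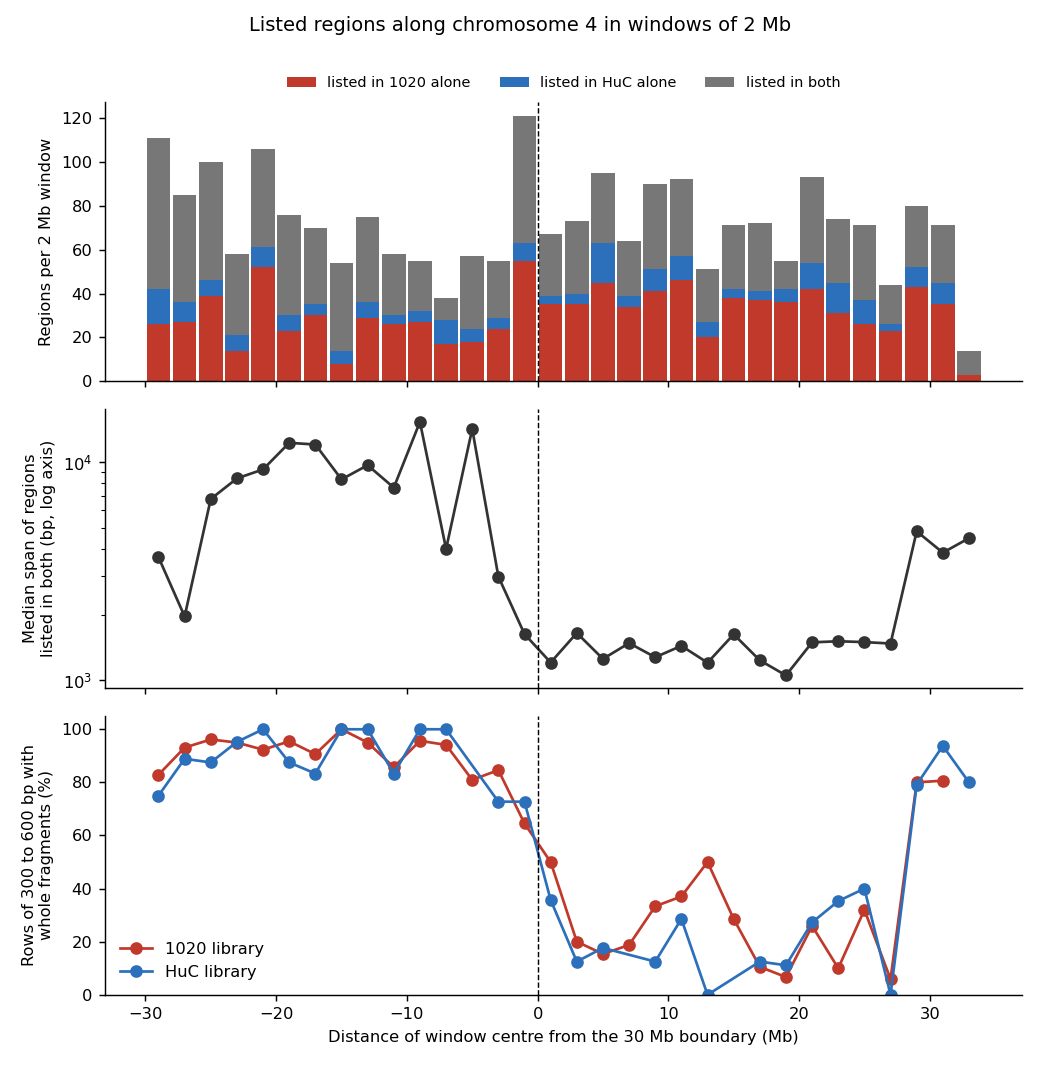
Chromosome 4 in windows of 2 Mb, placed by distance from the 30 Mb boundary (dashed line; the last window holds only the final 89.8 kb of listed regions). The top panel stacks the number of regions by the library that listed them, the middle panel gives the median span of regions listed in both libraries on a log axis, and the bottom panel gives the share of rows of 300 to 600 bp with a whole number of fragments for windows with at least 5 such rows. Between 30 and 58 Mb the median spans stay between 1053 and 1647 bp and the whole-fragment shares at or below 50.0%, and both are higher in the last windows.

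The share of rows with whole fragments separated the arm from the rest of the genome in both libraries. At a given short span most deposited FPKM values are multiples of one step, taken as 1 fragment, with the lowest recurring value at a span taken as 10 fragments. Rows of 300 to 600 bp were called whole when they lay within 0.01 fragments of a whole number, which 2% of evenly spread values would do. On the arm 140 of 382 such rows were whole in the 1020 library (36.6%) and 68 of 190 in the HuC library (35.8%). Below 30 Mb on the same chromosome the shares were 88.9% of 378 rows in 1020 and 87.4% of 159 rows in HuC, and on the other chromosomes 87.0% of 14756 rows in 1020 and 86.2% of 6678 rows in HuC. The arm's share lay below that of all 24 other chromosomes in each library, where the lowest were 82.2% on chromosome 22 in 1020 and 81.1% on chromosome 1 in HuC. The mean over those chromosomes was 86.9 ± 1.94% in 1020 and 86.1 ± 3.05% in HuC (SD, n = 24 chromosomes). Rows on the unplaced sequences of the build were whole in 72.0% of 596 cases in 1020 and 70.4% of 291 cases in HuC.

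Of the 242 rows of the arm that were not whole in the 1020 library, 47 had a fractional part of 1/2, 26 one of 1/3 or 2/3 and 18 one of 1/4 or 3/4, 91 in all (37.6%). In the HuC library these parts accounted for 37 of 122 rows (30.3%). On the other chromosomes they accounted for 33.8% of the rows that were not whole in 1020 and 32.6% in HuC. Cufflinks, which the submitters' processing notes name, can divide a fragment that aligns to several places among them, and a spliced transcript shorter than its span also departs from whole multiples. Which setting was used is not given, and the part of either in these shares was not tested. Levels of single regions are given as listed, and how far reads of near-identical copies enter them is unknown.

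Most of the arm's short shared regions that could be read were fractional in both libraries. On the arm 43 shared regions had 1 row in each library, both at a span where fragments could be read. Of these, 32 were fractional in both libraries, 6 were whole in both, 3 were whole in 1020 alone and 2 in HuC alone. On the other chromosomes 88 of 662 such regions were fractional in both and 517 were whole in both. Since most of the 43 were fractional in each library, many would be so in both even if the libraries were unrelated. Agreement between the libraries beyond that was not tested. The 32 fractional regions of the arm had a median log2 ratio of 1020 over HuC of -0.26, and the 6 whole ones of -0.27.

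The arm was not uniform along its length. The stretch from 30 to 58 Mb, 14 windows of 2 Mb with 1012 regions, had a median shared span of 1387 bp and a share of whole rows of 26.0% in 1020 (80 of 308) and 20.7% in HuC (30 of 145). The remaining 4.09 Mb up to the last listed base, with 165 regions, had a median shared span of 4409 bp and shares of 81.1% in 1020 (60 of 74) and 84.4% in HuC (38 of 45). The split at 58 Mb was chosen after these values were seen. By both measures the far end was closer to chromosome 4 below 30 Mb than to the stretch beside it. This did not hold for every measure. Its share of single-library regions was 60.6%, against 59.6% in the stretch beside it and 47.1% below 30 Mb. Its median shared level in 1020 was 3.19 FPKM, against 2.50 FPKM beside it and 4.62 FPKM below 30 Mb. In HuC it was 4.86 FPKM, against 2.68 and 4.57 FPKM. Regions covered 7.57% of the stretch from 30 to 58 Mb and 35.1% of the far end, and shared regions of 10000 bp or more made up 2.20% (9 of 409) and 29.2% (19 of 65).

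The windows between 30 and 58 Mb had few counterparts elsewhere. Their median shared spans ran from 1053 to 1647 bp, and 10 of 646 windows on the other chromosomes with at least 10 shared regions had a median at or below that upper value (1.55%). Their whole-fragment shares ran from 5.88 to 50.0% in the 1020 library and from 0 to 40.0% in the HuC library. On the other chromosomes 2 of 655 windows with at least 5 rows lay at or below that upper value in 1020 (0.305%), and 5 of 589 in HuC (0.849%). The change began before the boundary, since the window from 28 to 30 Mb had a median shared span of 1628 bp and whole shares of 64.5% in 1020 and 72.7% in HuC. Just above the boundary lay the region from 30007709 to 30008595, at 0.978 FPKM, and that from 30027614 to 30028111, at 1.30 FPKM, both listed in 1020 alone. Just below it lay the region from 29996565 to 29999670, at 6.14 FPKM in 1020 and 8.83 FPKM in HuC, and that from 29972183 to 29972870, at 0.835 FPKM in 1020 alone.

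Regions of a single library were frequent on the arm. They numbered 703 of 1177 (59.7%, against 50.0% over all regions of the series), with 570 in 1020 alone (48.4%, against 37.0% over all regions) and 133 in HuC alone (11.3%, against 13.0%). The share of single-library regions was 47.1% on chromosome 4 below 30 Mb and 49.5% on the other chromosomes, of which none exceeded 54.9%. On the unplaced sequences it was 57.7%, near that of the arm. Of the single-library regions, 81.1% belonged to 1020 on the arm, 78.7% below 30 Mb and 73.7% elsewhere. A region with no row in a library has no level there, which is not a level of 0. The lowest level of a shared region on the arm was 0.372 FPKM in 1020 and 0.485 FPKM in HuC.

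Span moved with this listing, in part by construction, since a shared region takes the joint span of its merged rows. Regions of 300 to 1000 bp made up 59.8% of the arm's regions, against 39.7% below 30 Mb and 44.7% elsewhere, and short regions were listed in a single library more often everywhere. Within this class the single-library share was 81.0% on the arm, 85.1% below 30 Mb and 85.7% elsewhere. In regions of 1000 to 3000 bp it was 31.4% on the arm, 34.7% below 30 Mb and 36.4% elsewhere. From 3000 to 10000 bp it was 16.1% on the arm, 24.7% below 30 Mb and 22.8% elsewhere. In these 3 classes the arm was thus not above the rest of the genome. Among regions of 10000 bp or more it was 12.5% on the arm (4 of 32 regions), 7.48% below 30 Mb and 7.83% elsewhere.

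The levels differed by span class, and the arm's lower median over all spans did not hold within every class. In both classes under 3000 bp the arm's medians were above those below 30 Mb and elsewhere, in each library. Shared regions of 300 to 1000 bp had a median of 2.24 FPKM in 1020 and 2.71 FPKM in HuC on the arm, 1.58 FPKM in 1020 and 1.89 FPKM in HuC below 30 Mb, and 1.84 FPKM in 1020 and 2.22 FPKM in HuC elsewhere. From 1000 to 3000 bp the arm had 2.43 FPKM in 1020 and 2.42 FPKM in HuC, and chromosome 4 below 30 Mb had 2.103 FPKM in 1020 and 2.37 FPKM in HuC. In this class the other chromosomes had 2.15 FPKM in 1020 and 2.24 FPKM in HuC. From 3000 to 10000 bp the arm was lower, at 4.10 FPKM in 1020 and 3.60 FPKM in HuC, against 4.78 FPKM in 1020 and 6.13 FPKM in HuC below 30 Mb and 5.63 FPKM in 1020 and 5.78 FPKM in HuC elsewhere. Regions of 10000 bp or more had a median of 14.3 FPKM in 1020 and 10.5 FPKM in HuC on the arm, from 28 shared regions. This was higher than below 30 Mb, at 9.93 FPKM in 1020 and 9.46 FPKM in HuC, and than elsewhere, at 9.74 FPKM in 1020 and 9.49 FPKM in HuC. These levels are sums over all rows of a region, which many rows can raise. Of the 28 regions, 19 lay from 58 Mb on.

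**Figure D2:**
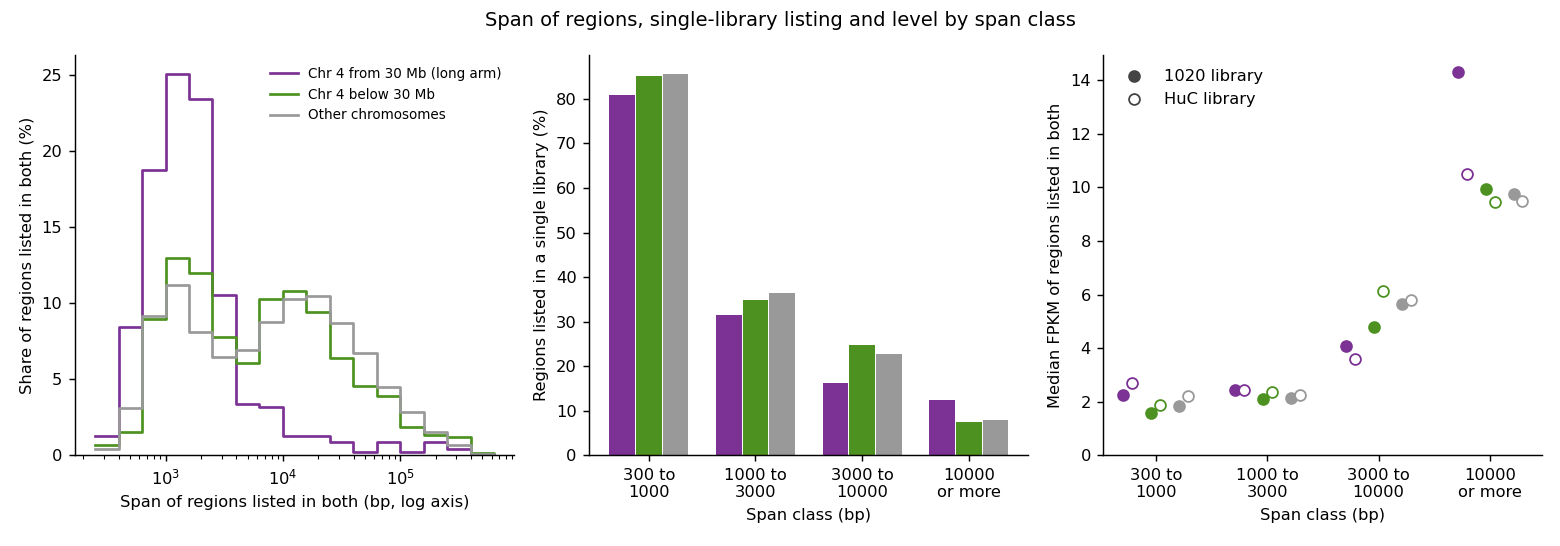
Regions of the arm (purple), of chromosome 4 below 30 Mb (green) and of the other chromosomes (grey). The left panel gives the distribution of spans of regions listed in both libraries on a log axis, the middle panel the share of regions listed in a single library by span class, and the right panel the median FPKM of regions listed in both, filled for 1020 and open for HuC. The arm lacks most of the regions of 10000 bp or more, and in the 3 shorter classes its bars are lower than the grey ones.

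Depth limited what an absent row could show. The depth behind the FPKM values was read as 38195710 fragments for 1020 and 21878344 for HuC. This reading takes the lowest recurring value at a span as 10 fragments, and how the libraries were normalized is not given. At these depths a short region has to be more abundant to be listed in HuC. Of 226 regions of 300 to 600 bp listed in 1020 alone on the arm, at the same FPKM 90 (39.8%) would be expected at 10 fragments or above in HuC, and 16 (7.08%) at 20 or above. For the others absence from HuC was not detectable as a difference. Near 10 expected fragments counting error alone can also leave a region unlisted, so absence shows little for most of the 90 either. The share expected to reach 10 fragments was 28.5% of 158 regions below 30 Mb and 25.7% of 6330 regions elsewhere. All 57 such regions of the arm listed in HuC alone would have reached 10 fragments in 1020, as its depth ensures, and 40 (70.2%) would have reached 20.

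The single-library regions of the arm held a part of its summed level. They carried 31.7% of the arm's summed FPKM in 1020, or 28.0% without the most abundant of them, and 14.1% in HuC. Their median level was 1.31 FPKM for regions in 1020 alone and 1.77 FPKM for those in HuC alone. Levels of 5 FPKM or more were reached by 27 regions of 1020 alone and 13 of HuC alone. This is 5.69% of the arm's single-library regions, against 3.42% below 30 Mb, 3.25% on the other chromosomes and 5.81% on the unplaced sequences.

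The most abundant region of 1020 alone ran from 49793335 to 49794142 and reached 209 FPKM. Nearly all of this came from 1 row of 312 bp at 205 FPKM, which corresponded to 946.6 fragments and was thus not whole. The next were the region from 57686455 to 57688606, at 43.4 FPKM, and that from 45367643 to 45369397, at 33.3 FPKM. In HuC alone the region from 55656449 to 55656797 reached 126 FPKM, from 431.1 fragments and thus again not whole. It was followed by the region from 60624736 to 60629542, at 103 FPKM, and that from 36289553 to 36293567, at 77.8 FPKM. Each of these 4 longer regions was a single row, and their fragments were not evaluated.

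Regions listed in both libraries were compared as the log2 ratio of (FPKM + 1), 1020 over HuC. The 460 counted on the arm reached 1 FPKM in at least 1 library, and 14 shared regions did not. In whole-population RNA, fewer cells of a type and less RNA per cell cannot be told apart in such a ratio. The median ratio was -0.07 on the arm (quartiles -0.52 and 0.37, SD across regions 0.81), -0.06 below 30 Mb and -0.04 on the other chromosomes. Of the 24 other chromosomes 7 had a lower median than the arm and 17 a higher one, within a range of -0.11 to 0.04.

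On the arm 31 regions were at least 2-fold higher in 1020 (6.74%, against 8.83% over all counted regions). At least 2-fold higher in HuC were 45 regions (9.78%, against 10.6%). A difference of 4-fold or more was found for 4 regions higher in 1020 (0.870%, against 0.945%) and for 7 higher in HuC (1.52%, against 1.37%). Several of these had rows of unlike span in the 2 libraries, as given below. The remaining 384 regions (83.5%) lay within 2-fold, against 80.6% over all counted regions. The members' shares were thus near those of the whole series. With the libraries scaled to an equal sum over shared regions, ratios shifted by up to about 0.14, and by less at low levels. The median on the arm was then 0.04, and the counts at 2-fold were 44 higher in 1020 and 39 higher in HuC. The side on which most 2-fold regions lay thus depended on the scaling.

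**Figure D3:**
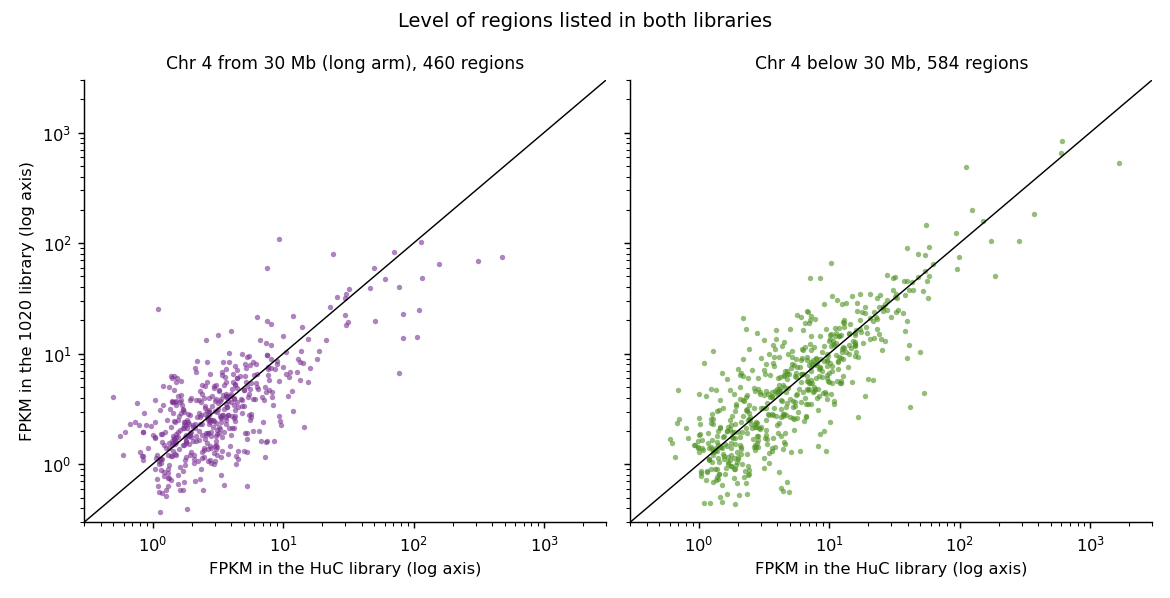
FPKM of each counted region in the 1020 library (vertical, log axis) against the HuC library (horizontal, log axis), for the arm (left, 460 regions) and for chromosome 4 below 30 Mb (right, 584 regions); the line marks equal levels. The arm's regions lie mostly below 10 FPKM in both libraries, and the medians are 2.68 FPKM in 1020 and 2.79 FPKM in HuC over the arm's shared regions.

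Of the 8 shared regions of the arm with the highest mean level over both libraries, 6 were at least 2-fold higher in HuC. This share was 9.78% over the arm's counted regions and 10.6% over all counted regions. A mean over both libraries ranks a region high when 1 library is very high, and some of the 6 were close neighbours. Some of the 6 ratios also rested on rows of unlike span, as given below. Among these were the regions from 34840407, 45218665 and 62017249. Equally abundant regions elsewhere were not compared, so the count describes these 8 regions and not the arm. The region from 45370473 to 45371093 had 74.8 FPKM in 1020 and 478 FPKM in HuC, a log2 ratio of -2.66. It was 1 of 3 neighbours that lay within 1075 and 357 bp of each other. The next region downstream, from 45371451 to 45373557, had 24.6 FPKM in 1020 and 109 FPKM in HuC, a log2 ratio of -2.10. The one upstream was that from 45367643, which was listed in 1020 alone at 33.3 FPKM. It had no HuC level to compare. Whether these 3 regions belong to 1 transcript or to several could not be read from the rows.

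The region from 45218665 to 45224611 had 48.8 FPKM in 1020 and 116 FPKM in HuC, a log2 ratio of -1.23. Its 1020 row spanned 5888 bp, while nearly all of the HuC level came from a row of 4319 bp. The ratio is therefore rough, and whether it holds at 2-fold in fragments was not evaluated. The region from 39247306 to 39247905 stood at nearly the same level in both, with 103 FPKM in 1020 and 115 FPKM in HuC and a log2 ratio of -0.15. Its rows corresponded to 1611.4 fragments in 1020 and 1008.9 in HuC, so neither was whole.

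The longest regions were stacks of many rows, whose sum counts each row in full. The region from 58644842 to 58930110 spanned 285269 bp and held 40 rows of 1020 and 28 of HuC, summing to 83.5 FPKM in 1020 and 70.4 FPKM in HuC. By its highest single rows it had 6.33 FPKM in 1020 and 7.92 FPKM in HuC, so its log2 ratio was 0.24 by the sum and -0.28 by the highest row. The region from 34840407 to 35095651 spanned 255245 bp and summed to 68.7 FPKM in 1020, from 9 rows, and to 312 FPKM in HuC, from 15 rows, a log2 ratio of -2.17. Most of the HuC sum was 1 row of 5999 bp, from 35084125 to 35090123, at 210 FPKM. The row that spans nearly the whole region went the other way, with 11.3 FPKM in 1020 and 1.77 FPKM in HuC.

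The 5 highest ratios among counted regions of 5 FPKM or more lay between 31 and 55 Mb. Regions at least 2-fold higher in 1020 were not confined to that stretch, since 3 of the 31 lay from 58 Mb on. The region from 54981480 to 54984978 had 25.2 FPKM in 1020, the sum of 2 rows at 17.5 and 7.69 FPKM, and 1.10 FPKM in HuC, a log2 ratio of 3.64. Its HuC row, from 54983134 to 54984294, lay mostly over the 1020 row at 7.69 FPKM. The region from 47062255 to 47062991 had 110 FPKM in 1020 and 9.35 FPKM in HuC, a log2 ratio of 3.42, from 1 row of 729 bp in each library. It was the most abundant shared region of the arm in 1020. The region from 49863910 to 50025760 had 59.9 FPKM in 1020 and 7.59 FPKM in HuC, a log2 ratio of 2.83. It summed 6 rows in 1020, 1 of them of 161676 bp, and 4 short rows in HuC. It was followed by the region from 50703175 to 50704295, with 13.4 FPKM in 1020 and 2.57 FPKM in HuC. Last came the region from 31647036 to 31648035, with 14.8 FPKM in 1020 and 3.15 FPKM in HuC. Its rows had unlike spans, 1000 bp in 1020 and 436 bp in HuC, and the HuC row held 16.8 fragments and was thus not whole. These 5 regions were chosen for their ratios, which are therefore a description.

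The lowest ratio belonged to the region from 62087095 to 62087414, with 6.71 FPKM in 1020 and 77.6 FPKM in HuC, a log2 ratio of -3.35. The rows had the same span of 312 bp and held whole fragments, 31 in 1020 and 203 in HuC. The exact 95% Poisson intervals, which cover counting error only, were 4.56 to 9.53 FPKM in 1020 and 67.3 to 89.1 FPKM in HuC. The region was chosen for its ratio, which is therefore a description. The region from 62017249 to 62039289 had 14.1 FPKM in 1020 and 106 FPKM in HuC, a log2 ratio of -2.83. The HuC library split its end into 3 rows of 349, 326 and 486 bp at 53.5, 33.3 and 12.5 FPKM, where 1020 had a row of 1583 bp at 8.13 FPKM. Over most of the region the rows were alike in span, 20181 bp in 1020 and 20532 bp in HuC. They had 4.67 FPKM in 1020 and 6.82 FPKM in HuC. The ratio of -2.83 thus rested mostly on the split end, where summed FPKM of short rows were set against a longer row. It is not a measure of the difference in fragments.

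Lower ratios were also found in the middle of the arm. The region from 51855358 to 51865959 had 13.7 FPKM in 1020 and 83.1 FPKM in HuC, a log2 ratio of -2.51. Its 1020 row spanned 9982 bp, while nearly all of the HuC level came from a row of 4908 bp. The region from 55301399 to 55302438 had 2.17 FPKM in 1020, on a row of 1040 bp, and 14.3 FPKM in HuC, on a row of 320 bp with 40 whole fragments (exact 95% Poisson interval 10.2 to 19.5 FPKM). Unlike spans of this kind make the ratio of FPKM rough, since the same fragments give a higher FPKM on a shorter row. The fragments of the 1020 row were not evaluated, so whether this region differs between the libraries could not be read. The interval covers counting error only and not the difference in span.

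**Figure D4:**
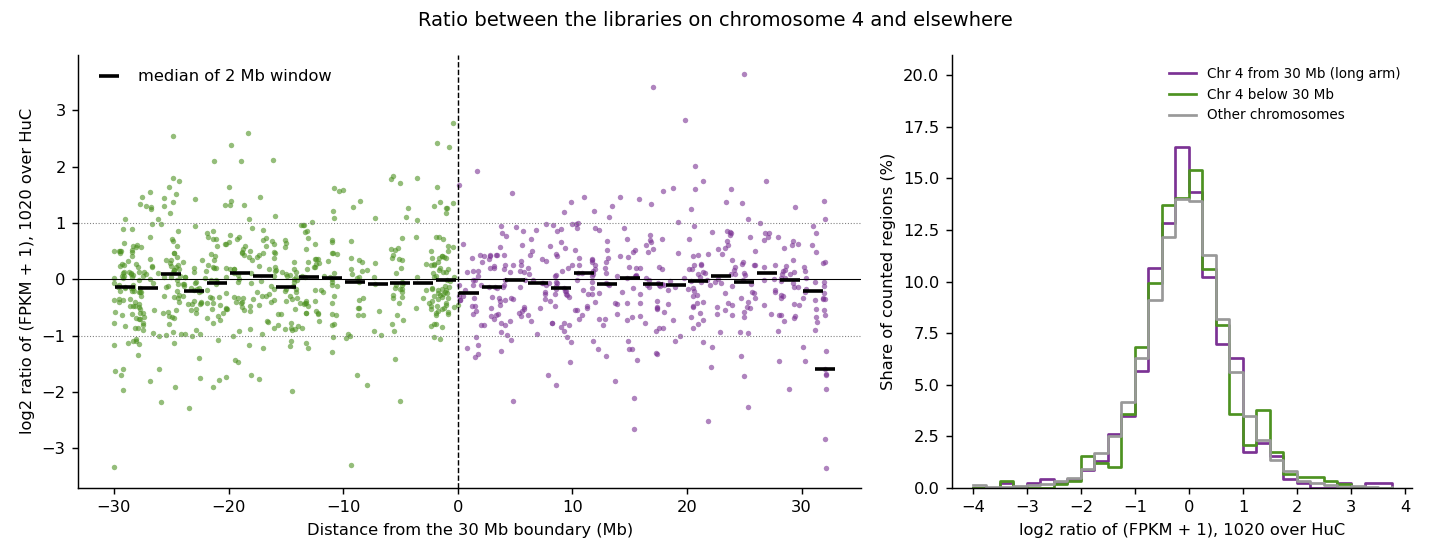
The left panel gives the log2 ratio of (FPKM + 1), 1020 over HuC, of each counted region of chromosome 4 against its distance from the 30 Mb boundary (dashed line), purple on the arm and green below it, with dotted lines at 2-fold and bars for the medians of 2 Mb windows. The right panel gives the distribution of the ratio for the arm, for chromosome 4 below 30 Mb and for the other chromosomes. The distributions overlap throughout. The median of the last window, -1.59 over 11 regions, stands below the others, but this window holds only 89.8 kb of listed regions.

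The last listed stretch of the arm had mostly low ratios. From 62004166 to 62093934, 89.8 kb at the end of the chromosome, 14 regions were listed, 11 of them in both libraries and 3 in 1020 alone. Of the 11 shared regions 9 had a ratio below 0, 7 were at least 2-fold higher in HuC and 1 was at least 2-fold higher in 1020, and their median was -1.59. Among the 7 was the region from 62017249, whose ratio rested mostly on rows of unlike span. The counts with the highest row per region in place of the sum were 9 below 0 and 7 at least 2-fold higher in HuC, with a median of -1.65. No other window with at least 10 shared regions, on the arm, below 30 Mb or among 646 on the other chromosomes, had a median as low, the lowest elsewhere being -0.57. Those windows were of 2 Mb, against 89.8 kb here, so the ranking sets unlike lengths side by side. Runs of neighbouring regions of this length elsewhere were not compared. This stretch was singled out after its values were seen. In the 54 counted regions between 58 and 62 Mb the median was -0.09.

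Of the 45 regions of the arm at least 2-fold higher in HuC, 7 thus lay in this stretch. Without it, 38 of 449 were at least 2-fold higher in HuC (8.46%) and the median ratio was -0.06. The last region, from 62092444 to 62093934, had 64.2 FPKM in 1020 and 157 FPKM in HuC, a log2 ratio of -1.28. Between it and the region of the lowest ratio, 1 region was listed in 1020 alone, at 1.76 FPKM. Just before that of the lowest ratio lay 3 short shared regions, at 1.57, 0.630 and 3.01 FPKM in 1020 and at 7.35, 5.27 and 11.9 FPKM in HuC. The run was not unbroken, since the region from 62004166 to 62016013 had 8.39 FPKM in 1020 and 3.45 FPKM in HuC, and that from 62050267 to 62058955 had 17.6 FPKM in 1020 and 14.0 FPKM in HuC. A difference between the cells and one between the preparations of the 2 libraries cannot be told apart here.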

How the data were processed

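Per the labels' protocols, sorted cells went into Trizol and polyA-selected RNA was sequenced. Zv9, Cuffdiff, Cufflinks 2.1.1 and TopHat 1.4.0 are listed in the submitters' processing notes, without roles; annotation, filters and settings are not given. The authors deposited 1 FPKM value per row, 70216 rows for 1020 and 49173 for HuC, with positions and no gene names. Starts count from 0; 1 was added to those printed. No sequence is printed, since no Zv9 genome was used.

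Computed here (Python 3.11.15, pandas 2.3.3): rows under 300 bp or above 200000 FPKM were dropped, leaving 62223 and 47318, and merged at 1 bp overlap. Ratios used a pseudocount of 1, which understates the change of low regions. The FPKM of 1 fragment was read at spans of 300 to 600 bp where the lowest value came up 2 times or more and 60% of values were whole; a line from 450 bp gave the depths. The merging and fragment steps were checked on simulated rows. With 1 library per group no test between libraries was made.

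Named were the 8 most abundant shared members, the 5 highest and 5 lowest ratios at 5 FPKM or more, the 3 most abundant of each library alone, the 2 longest, and the 2 nearest on each side of the boundary. Members and comparisons were chosen with earlier results of these data known. Whole-fragment shares, span classes, the comparison with windows on the other chromosomes and the splits at 58 and 62 Mb were added after values were seen.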

Additional observations from a re-analysis of the deposited data

Results flagged for a closer look

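Rows left out of the comparisons included very high FPKM values on the arm. Of its rows, 156 of 1020 (10.9%, against 11.4% over the genome) and 53 of HuC (6.33%, against 3.77% over the genome) had a span under 300 bp. Of these, 7 in 1020 and 0 in HuC lay within 1 bp of 100 bp, at 260085 to 494162 FPKM, and no other row of the arm was above the FPKM maximum. Fragments were read only at spans of 300 to 600 bp, so how many fragments lie behind these 7 rows is unknown. A sum over the arm that kept these rows would rest on them, since the sum without them was 4096 FPKM in 1020.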

How the results depend on the processing

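Of 103 alternatives for the counts, shares and medians, 78 stayed within the margin set for each, namely 1.5 times for counts and a 95% interval for shares and medians. The intervals treat the arm's regions or rows as independent, so they serve as a margin only and measure no spread between libraries. The median log2 ratio, -0.07, became 0.036 with both libraries at the same sum and 0.44 with absent rows taken as 0. The counts at 2-fold, 31 higher in 1020 and 45 in HuC, became 57 in 1020 and 72 in HuC at pseudocount 0.1, 8 and 15 at pseudocount 5, 403 and 153 with absent rows as 0, and 12 and 26 among the 353 regions with 1 row in each library. At 4-fold, 4 and 7 became 10 and 15 at pseudocount 0.1, 80 and 37 with absent rows as 0, 8 and 20 with no span minimum and no FPKM maximum, and 2 and 4 with 1 row in each library. The 4-fold count was 7 in 1020 from 25 Mb, and 4 in HuC with a span minimum of 500 bp. The 1020 share of single-library regions, 81.1%, was 77.8% from 500 bp. It was 61.2% among 147 regions of 300 to 600 bp with an expected 10 fragments in the other library, a set that by construction drops most weak 1020 regions. The share of whole rows in 1020, 36.6%, was 42.0% with the boundary at 25 Mb; without the stretch from 58 Mb it was 26.0% in 1020 and 20.7% in HuC. By construction, the pseudocount moves low regions most. Taking absent rows as 0 adds single-library regions, which raised the regions counted from 460 to 940. Otherwise the cause was not tested. The 17 named shared regions kept their side of 2-fold and, where past it, their direction under all 68 alternatives. They were chosen by level, ratio, span or position, mostly for extreme values, so this does not speak for the arm as a whole. These alternatives also did not make the spans of the rows alike between the libraries. The region of 285269 bp, within 2-fold, turned to -0.28 by its highest row. Depth limits the short regions of 1020 alone. No replicate could be left out. No paired analysis was possible because 1020 and HuC are single libraries.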
